A study of Mus musculus with 40 samples.

Results

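Piericidin A, which blocks complex I of the mitochondrial electron transport chain, was added to LPS-treated wild-type macrophages, and 10 of the 40 RNA-seq libraries of the series make up this comparison. They are the libraries of mice 449, 452, 453, 496 and 520 labelled VAV-Cre WT, of which each mouse gave 1 library with LPS alone and 1 with LPS plus piericidin A. The members were chosen by genotype and treatment label and joined by the library number, which is taken here as the mouse, so that the comparison was made within 5 mice. The cells were bone-marrow-derived macrophages (BMDMs) of strain C57/Bl6, grown with M-CSF in medium that held methyl-pyruvate and uridine. The LPS group received 100 ng/ml LPS for 4 h, and the other group received 500 nM piericidin A 30 min before the same LPS treatment. WT mice carried the Vav-iCre transgene, which drives recombination in haematopoietic cells, but not the construct for NDI1. Of the other 30 libraries, 10 of the same WT mice had no LPS (untreated, or piericidin A alone), and 20 came from the VAV-Cre NDI1 mice 447, 460, 461, 503 and 521 under the same 4 treatments. NDI1 is a yeast NADH dehydrogenase that piericidin A does not block, made from the Rosa26 locus in blood cells once Cre removes a stop signal.

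Complex I passes electrons from NADH to ubiquinone, and so renews the NAD+ that the TCA cycle and other oxidations use while it pumps protons across the inner mitochondrial membrane. LPS acts through the receptor TLR4, which switches on NF-kB and MAP kinase signalling and, through TRIF, IRF3 and type I interferon. Macrophages then make cytokines and chemokines, raise glycolysis, change the expression of sterol and interferon response genes, and prepare the parts of the NLRP3 inflammasome. A block of respiration is known to switch on ATF4, the factor of the integrated stress response, which governs genes for amino acid synthesis, uptake and charging of tRNA.

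Of 11853 genes tested across the table, 1854 were higher (15.6% of those tested) and 2236 were lower (18.9%) with piericidin A in WT BMDMs that had LPS, at an adjusted p under 0.05. All adjusted p-values come from edgeR's quasi-likelihood test with Benjamini-Hochberg adjustment over these 11853 genes, in a fit with the mouse as a block. Changes are fitted log2 fold changes, LPS plus piericidin A minus LPS. Levels of single genes are counts scaled (CPM) by an adjusted total, that of the tested genes times a normalisation factor (TMM). Sums over marker lists and the count floor, also in CPM, use the plain library totals instead. Genes are named by size of change within the comparison or within a list, and further list members after their values were seen. Among the called genes the median size of the change was 0.50 on the log2 scale, 461 rose and 141 fell by at least 2-fold, and the median over all genes tested was -0.02. In 3309 of the 4090 called genes all 5 mice moved the same way. Exons of 1510 called genes overlap another annotated gene, and counts without strand cannot part the overlapping genes. Among genes named below these include Il1b, Pycard, Txnip, Irak3, Hmgcs1, Idi1, Fdps, Fdft1, Cyp51, Edn1 and Dusp5. Genes with near-identical copies, such as Nlrp1b, Hspa1a, Ftl1 and Gapdh, are less certain too. The 2 groups of 5 libraries did not overlap for 486 genes that were higher (4.1% of those tested) and 448 that were lower (3.78%). The 5 mice differed in how far they moved. Genes called higher had a median log2 difference of 0.90 in mouse 496 and 0.82 in mouse 520, against 0.52, 0.46 and 0.27 in mice 449, 453 and 452. Without mouse 496 there were 2781 calls and without mouse 520 there were 2815. With no mouse block 1983 genes were called, of which 1981 were among the 4090 with the same direction. A fold change in a bulk library cannot tell fewer cells of one kind from less RNA per cell. The labels do not say that libraries of one mouse came from separate cultures. The p-values rest on the spread left after each mouse and each group had its own term, pooled over all 40 libraries.

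The 10 libraries held 6950748 to 12316515 counts each. On these plain totals the floor of 3 counts stood at 0.432 to 0.244 CPM, and counting error alone is covered by it. Gene levels are on the adjusted scale, where the same count gives a somewhat different value. The macrophage markers summed to 20570 to 30980 CPM with LPS and 19160 to 28520 CPM with LPS and piericidin A, and all 10 markers were tested. Of these, 4 fell and 1 rose, with Spi1, which encodes the transcription factor PU.1, at -0.69 (adjusted p = 2.21e-05), and 2 fell without mouse 496, on the 10 compared libraries or with no block. Among 7 tested neutrophil markers 6 were called higher, with a median log2 change of 1.13. Their summed level spanned 39.3 to 812.1 CPM with LPS and 84.5 to 2394 CPM with LPS and piericidin A, with mouse 496 highest in both groups. S100a8, a calcium-binding protein abundant in neutrophils, was at 8.71, 28.4, 15.95, 187 and 17.1 CPM with LPS and 18.8, 34.9, 26.7, 451 and 34.7 CPM with LPS and piericidin A. The groups overlapped for S100a8, and mouse 496 stood above the other 4 mice in each. With no mouse block none of the neutrophil markers was called, and without mouse 496 the list had 4 of 6 called and a median of 0.87. None of the 5 B cell, 2 T cell and 4 dendritic cell markers tested was called. Their sums lay at 3.05 to 26.7, 11.2 to 18.8 and 6.60 to 12.4 CPM with LPS, and at 7.27 to 47.5, 7.92 to 18.6 and 5.86 to 25.6 CPM with LPS and piericidin A, while the erythroid markers summed to at most 0.432 CPM in any library. Osteoclast markers, which macrophage cultures can also express, included 2 of 3 called higher, Dcstamp at 1.84 (adjusted p = 0.00108) and Ctsk at 0.68 (adjusted p = 0.000192). The third, Acp5, was at -0.23 (adjusted p = 0.118). The osteoclast list summed to 53.1 to 106 CPM with LPS and 56.0 to 109.9 CPM with LPS and piericidin A. Of 2 mast cell and 4 stromal markers tested, Kit and Col1a2 were called higher and Pdgfrb lower. With no mouse block none of the osteoclast, mast cell and stromal markers was called. The part of these markers in the results below was not tested.

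The 12 largest rises and 12 largest falls were taken from the called genes whose log2 CPM averaged 1 or more over the 40 libraries and that moved one way in all 5 WT mice. A larger rise than any of these, that of Ifnb1, is described below, since its mean level was lower. The first of the 12 rises was that of Arl4c, a small GTPase at the plasma membrane (chr1:88673125-88702221, minus strand, build mm10). In mice 449, 452, 453, 496 and 520, the order kept in every list of 5 values below, Arl4c was at 18.8, 7.58, 10.6, 14.7 and 15.1 CPM with LPS and 189.8, 54.4, 129, 325 and 257 CPM with LPS and piericidin A. Every library with piericidin A lay above every library without it, and the log2 change was 3.73 ± 0.21 (SE, adjusted p = 7.31e-14). Pdxk, the kinase that makes the active form of vitamin B6, was at 26.5, 26.5, 35.6, 15.1 and 19.2 CPM with LPS and 266, 86.6, 202, 628 and 347 CPM with LPS and piericidin A, a log2 change of 3.52 ± 0.32 (SE, adjusted p = 1.76e-09). Its groups did not overlap either. Cxcr4, the receptor for the chemokine CXCL12, was at 6.40, 5.34, 4.80, 6.45 and 7.57 CPM with LPS and 37.7, 14.5, 39.6, 74.9 and 65.2 CPM with LPS and piericidin A, a log2 change of 2.82 ± 0.23 (SE, adjusted p = 6.69e-10). Each mouse rose, most in mouse 496 and least in mouse 452. Among the 12 largest rises mouse 496 rose most in each but Tmem37, and mouse 452 rose least in each but Tm4sf19. Gdf15, a stress-induced cytokine, was at 41.4, 29.3, 16.8, 21.4 and 28.6 CPM with LPS and 245, 76.5, 103, 381 and 409 CPM with LPS and piericidin A, a log2 change of 2.92 ± 0.28 (SE, adjusted p = 8.46e-09). The other 8 of the 12 largest rises were Htr2a, a serotonin receptor (3.68), Amz1, a metallopeptidase (3.58), Arhgap28, a GTPase-activating protein (3.03), Rgcc, a regulator of the cell cycle (2.94), Tent5c, a poly(A) polymerase (2.80), Tmem37 (2.53), Tm4sf19 (2.53) and Plagl1, a zinc finger transcription factor (2.49). Their adjusted p-values ran from 6.69e-10 to 1.57e-07.

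The first of the 12 falls was that of Pou2f2, an octamer-binding transcription factor, at 153, 180.1, 118, 222 and 155 CPM with LPS and 41.2, 97.8, 23.7, 50.2 and 23.1 CPM with LPS and piericidin A, a log2 change of -1.91 ± 0.23 (SE, adjusted p = 2.63e-07). Pdgfb, a chain of platelet-derived growth factor, was at 43.97, 31.4, 33.4, 53.8 and 42.7 CPM with LPS and 16.6, 11.00, 11.1, 12.4 and 5.99 CPM with LPS and piericidin A, and fell in every mouse with no overlap of the groups (-1.85, adjusted p = 6.69e-10). Trib1, a pseudokinase that directs other proteins to degradation, was at 43.4, 39.1, 36.03, 80.9 and 60.1 CPM with LPS and 16.2, 15.7, 8.17, 27.1 and 12.1 CPM with LPS and piericidin A, again without overlap (-1.71, adjusted p = 1.36e-09). Cp, the copper ferroxidase ceruloplasmin, was at 279, 217, 87.8, 537 and 256 CPM with LPS and 104, 128, 30.8, 114 and 37.2 CPM with LPS and piericidin A, which gave a log2 change of -1.71 ± 0.22 (SE, adjusted p = 1e-06). Mouse 452 kept the highest Cp level with piericidin A and moved least. Saa3, an acute-phase protein of macrophages, was at 1860, 1846, 974, 3239 and 2922 CPM with LPS and 883, 1261, 722, 738 and 329 CPM with LPS and piericidin A, a log2 change of -1.55 ± 0.27 (SE, adjusted p = 6.92e-05). Its groups overlapped, since mouse 453 had a lower level with LPS than mouse 452 with LPS and piericidin A. The other 7 of the 12 largest falls were Edn1, the vasoconstrictor endothelin (-1.66), Spaca6 (-1.65), Efr3b (-1.63), Hdac9, a histone deacetylase (-1.57), and 3 genes of sterol synthesis described below, Cyp51 (-1.57), Idi1 (-1.55) and Fdft1 (-1.54).

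**Figure D1:**
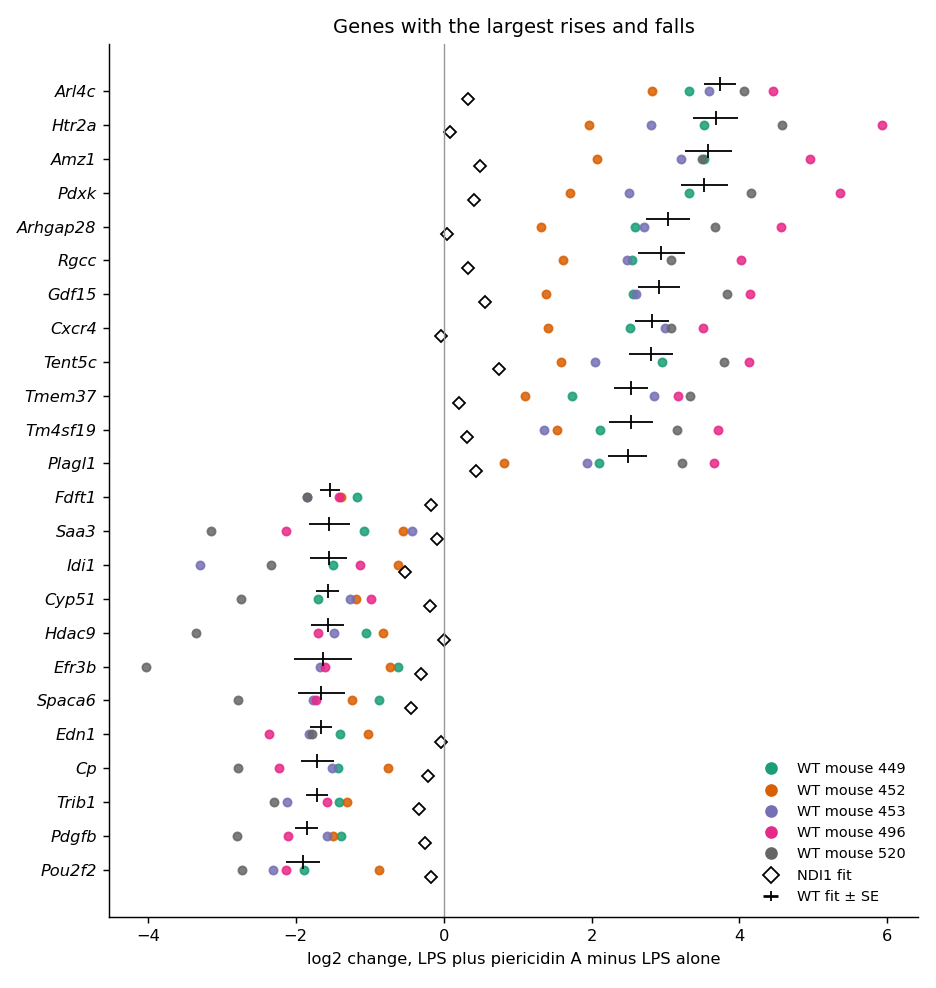
Log2 change with piericidin A in LPS-treated BMDMs for the 12 largest rises and 12 largest falls among called genes whose log2 CPM averaged 1 or more and that moved one way in all 5 WT mice; each coloured point is 1 WT mouse, the cross with a bar is the fitted WT change ± SE and the diamond is the fitted change in NDI1. All 5 WT mice lie on 1 side of 0 for each gene, with a fitted change of 3.73 for Arl4c and -1.91 for Pou2f2, while the diamonds lie between -0.52 and 0.75.

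**Figure D2:**
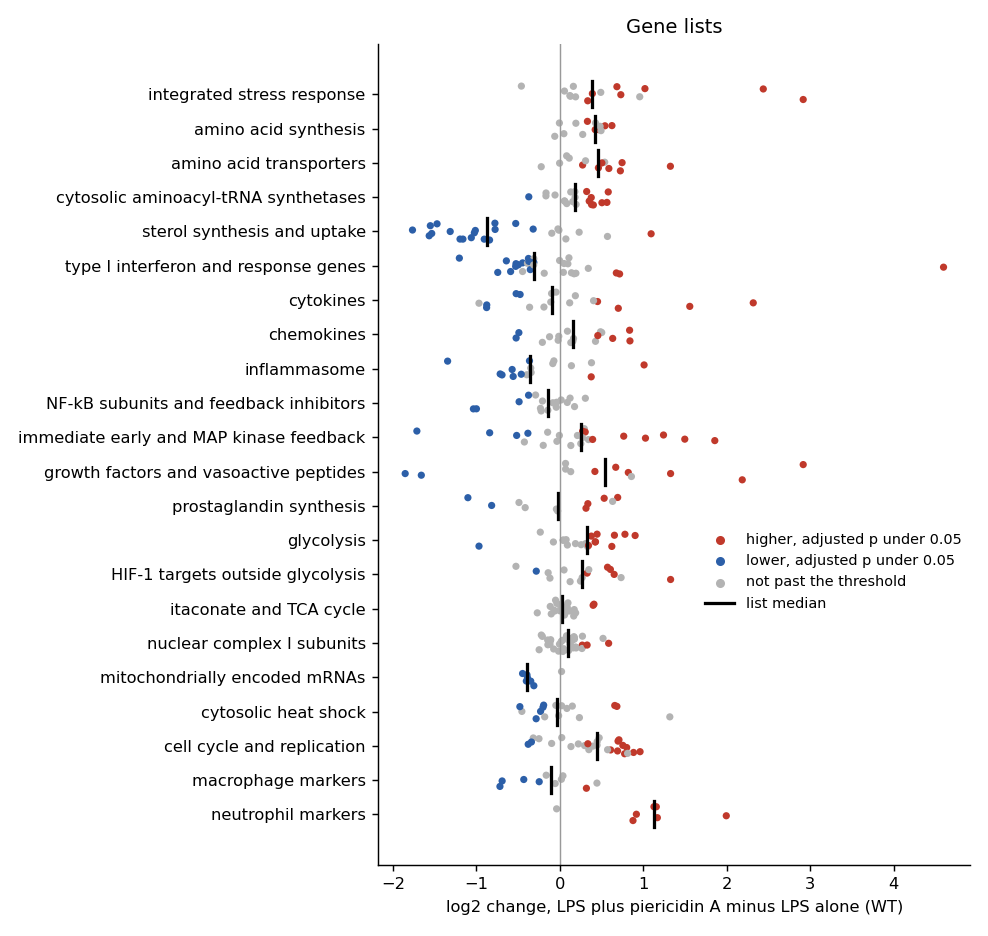
Log2 change with piericidin A in WT BMDMs that had LPS, for each tested member of 22 gene lists; red points were called higher and blue points lower at an adjusted p under 0.05, and the black bar is the list median. The sterol list lies to the left (median -0.87), the amino acid lists lie to the right (medians 0.42 and 0.46), and the TCA cycle and complex I lists stay near 0 (medians 0.02 and 0.09).

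Genes of the integrated stress response rose in part. Of 15 tested members 7 were called higher and none lower, and the list median was 0.39, beside -0.02 for all genes. The members that rose were Gdf15, Ddit4, Trib3, Ppp1r15a, Sesn2, Ddit3 and Atf5, which are targets or brakes of the pathway. Ddit4, an inhibitor of mTORC1 signalling, was at 1.63, 0.855, 1.45, 3.70 and 1.36 CPM with LPS and 9.38, 5.37, 10.6, 15.1 and 7.85 CPM with LPS and piericidin A. Every mouse rose and the groups did not overlap, with a log2 change of 2.44 ± 0.30 (SE, adjusted p = 3.31e-07). Trib3, a pseudokinase induced by ATF4, was at 7.08, 5.45, 5.47, 3.70 and 13.6 CPM with LPS and 13.7, 10.5, 14.3, 9.87 and 20.2 CPM with LPS and piericidin A. Mouse 520 was highest in both groups for Trib3 and the groups overlapped, while each mouse rose (1.02, adjusted p = 1.16e-05). Ppp1r15a, the phosphatase subunit that ends the response, changed by 0.73 (adjusted p = 0.00230) and Sesn2, a leucine sensor, by 0.68 (adjusted p = 0.00374). Atf4 itself, whose protein is set mainly by translation, was at 139, 158, 137, 163 and 240.0 CPM with LPS and 171, 152, 179, 164 and 297 CPM with LPS and piericidin A, a log2 change of 0.19 (adjusted p = 0.222) that did not pass. Chac1, which degrades glutathione, also did not pass with 0.96 (adjusted p = 0.193), nor did Atf3 with 0.12 (adjusted p = 0.502). With no mouse block 4 members were called higher. Calls lost in that fit included Trib3 and Ddit3 (adjusted p = 0.154 to 0.333). The call was lost for Ddit3 without mouse 449, 453 or 520 (log2 change 0.28 and adjusted p = 0.148 without 453).

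Genes for amino acids, which this pathway governs, also rose in part. Amino acid synthesis had 5 of 13 tested members called higher and none lower (median 0.42). They were Got1, the cytosolic aspartate aminotransferase, which also carries NADH electrons in the malate-aspartate shuttle (0.62, adjusted p = 0.00031), Mthfd2 and Shmt2 of the mitochondrial one-carbon pathway (0.54, adjusted p = 0.000994, and 0.33, adjusted p = 0.00494), Mthfd1 of the cytosolic one (0.46, adjusted p = 0.0149) and Asns, asparagine synthetase (0.42, adjusted p = 0.00159). Got1 was at 39.6, 38.02, 53.4, 23.9 and 27.4 CPM with LPS and 61.5, 51.3, 62.1, 56.03 and 44.96 CPM with LPS and piericidin A. It rose in every mouse, and the groups overlapped because the mice differed in level. The entry enzymes of serine synthesis did not pass, with Phgdh at 0.43 (adjusted p = 0.0882) and Psat1 at -0.06 (adjusted p = 0.741). Of 13 transporters tested 7 were called higher and none lower (median 0.46). Slc38a1, a glutamine carrier, was at 121, 103, 149, 75.2 and 98.7 CPM with LPS and 267, 161, 264, 312 and 343 CPM with LPS and piericidin A, without overlap of the groups (1.32, adjusted p = 1.06e-06). Slc3a2, the heavy chain shared by several carriers, changed by 0.75 (adjusted p = 6.95e-08), Slc43a2, a carrier of large neutral amino acids, by 0.73 (adjusted p = 0.000122), and Slc38a2 by 0.59 (adjusted p = 0.000434). Slc7a11, which imports cystine, was at 0.54 (adjusted p = 0.187) and not past the threshold. Without the mouse block 2 synthesis genes and 5 transporters were called, and Mthfd2, Mthfd1 and Asns were lost (adjusted p = 0.0877 to 0.364). With 1 mouse left out, the call was lost for Mthfd1 without mouse 496 or 520 (log2 change 0.40 and adjusted p = 0.0816 without 520). Other fits that kept the block lost Shmt2 with no filter (adjusted p = 0.0931).

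Among 20 cytosolic aminoacyl-tRNA synthetases, the enzymes that charge tRNA, 8 were called higher and 1 lower (median 0.18). The largest changes were those of Mars (0.58, adjusted p = 0.000149), Sars (0.56, adjusted p = 7.37e-06) and Qars (0.50, adjusted p = 2.96e-06), and Wars, which interferon also induces, was the one that fell (-0.37, adjusted p = 0.00485). Mitochondrial chaperones and proteases had 4 called higher and 1 lower of 17 tested, with Lonp1, a matrix protease, at 0.43 (adjusted p = 1.58e-05) and Yme1l1, a protease of the inner membrane, at -0.42 (adjusted p = 0.00047), and 2 were called higher without mouse 496 and 1 with no block. Dele1, the relay of mitochondrial stress to the integrated stress response, was at 0.29 (adjusted p = 0.0474). With no mouse block 5 synthetases were called, and the calls of Sars, Wars and Dele1 were lost (adjusted p = 0.0534 to 0.165). In the fits without 1 mouse, calls were lost for Wars without mouse 496 (log2 change -0.29 and adjusted p = 0.0586) and Dele1 without mouse 449, 496 or 520 (log2 change 0.17 and adjusted p = 0.358 without 449). Fits with the block under another setting lost Dele1 with DESeq2, with RLE factors, on the WT libraries alone, on the 10 compared libraries, with no filter and with thinned counts (adjusted p = 0.0501 to 0.300).

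The promoter letters of this pathway are shown for a stress response gene and an amino acid gene that rose, so that the values can be read beside the sequence. TGATGNAA is a core of the element to which CHOP and ATF4 with C/EBP proteins bind, and it was searched on both strands of RefSeq promoters, 250 bases before to 50 bases after the start, on build GRCm38.p6. It was found in 6 of the 15 list genes with a promoter (40.0%), 3 of 14 synthesis genes (21.4%), 2 of 9 transporters (22.2%) and 5 of 13 synthetases (38.5%), beside 1219 of 27025 genes (4.51%). Of the called members with a promoter, 1 of 7, 2 of 5, 0 of 5 and 2 of 5 in these lists held it. The capitals mark the match, which lies on the strand opposite to the gene in both 100-base windows, with its leftmost base at position 14 from the start in Trib3 and -102 in Got1.
Trib3 (chr2:152344011-152344110, minus strand): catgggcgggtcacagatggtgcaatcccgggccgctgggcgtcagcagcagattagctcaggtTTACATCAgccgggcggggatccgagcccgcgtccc
Got1 (chr19:43524654-43524753, minus strand): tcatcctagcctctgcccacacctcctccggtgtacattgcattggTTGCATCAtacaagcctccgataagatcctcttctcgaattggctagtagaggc

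Genes of sterol synthesis and uptake fell. Of 24 tested members 17 were called lower and 1 higher, and the median log2 change was -0.87. The fall reached from the start of the pathway, with Hmgcs1 (-1.31), through the isoprenoid steps Idi1 (-1.55) and Fdps (-1.16), to squalene and the later sterols with Fdft1 (-1.54), Sqle (-1.01), Cyp51 (-1.57), Msmo1 (-1.47), Hsd17b7 (-1.77) and Sc5d (-0.91). The sterol carrier Stard4 (-1.20) and Srebf2, which encodes the factor that drives these genes (-0.32), fell with them. Adjusted p-values of these 11 falls ran from 1.91e-09 to 0.00399. Hsd17b7 rose by 0.33 on the log2 scale in mouse 496 and fell in the other 4 mice. Insig1, which holds back the activation of that factor, was the member that rose (1.09, adjusted p = 0.000408). Hmgcs1 was at 135, 267, 113, 101 and 272 CPM with LPS and 59.9, 136, 51.3, 44.4 and 58.7 CPM with LPS and piericidin A. Fdps was at 14.3, 26.4, 15.1, 14.4 and 35.1 CPM with LPS and 6.43, 12.03, 10.4, 5.82 and 11.3 CPM with LPS and piericidin A, the one member whose groups did not overlap. Fdft1 was at 15.9, 33.1, 16.1, 12.5 and 41.6 CPM with LPS and 6.97, 12.5, 4.32, 4.55 and 11.4 CPM with LPS and piericidin A. Mice 452 and 520 had the highest Hmgcs1 and Fdft1 levels with LPS, every mouse fell, and mouse 520 had the largest fold change of Hmgcs1. The list median per mouse was -0.70, -0.70, -0.63, -0.48 and -1.51, and without mouse 520 the fitted median was -0.67. With no mouse block 12 members were called lower and 1 higher. Of those named, Srebf2 did not pass then (adjusted p = 0.184). Mvk, Mvd, Tm7sf2, Nsdhl, Ebp and Dhcr7 were not called, between -0.10 and 0.57.

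TCACNCCAC, a form of the sterol regulatory element, was present in 1 of 17 sterol genes with a promoter (5.88%), beside 388 of 27025 genes (1.44%). That gene was Hmgcs1, and its window is given with the match in capitals on the strand of the gene, its leftmost base at -137.
Hmgcs1 (chr13:119690168-119690267, plus strand): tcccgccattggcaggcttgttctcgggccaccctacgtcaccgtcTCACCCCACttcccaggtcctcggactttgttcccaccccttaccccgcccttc

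Neighbouring lipid lists were mixed. Fatty acid synthesis had 4 of 12 called higher and 3 lower, with Fads1, a desaturase, at 0.53 (adjusted p = 0.000784) and Fasn, the synthase, at -0.40 (adjusted p = 0.0127). Without mouse 496 there were 2 higher and 1 lower, without mouse 452 there were 3 higher and 1 lower, and none was lower without mouse 520, on the 10 compared libraries or with no block. Of 9 genes of cholesterol efflux and LXR targets, 2 were called higher and 1 lower, led by Mylip, a ubiquitin ligase, at 1.10 (adjusted p = 7.31e-06), and the efflux pump Abca1 at -0.41 (adjusted p = 0.0259). The shares of this list were 22.2% higher and 11.1% lower. Calls that needed the mouse block were those of Fasn, Mylip and Abca1 (adjusted p = 0.0577 to 0.406 without it). Calls lost when 1 mouse was left out were those of Fasn without mouse 452 or 520 (log2 change -0.30 and adjusted p = 0.0876 without 520) and Abca1 without mouse 452, 453, 496 or 520 (log2 change -0.34 and adjusted p = 0.120 without 453). With the block kept, other settings lost Fasn on the 10 compared libraries (adjusted p = 0.0821).

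Ifnb1, which encodes interferon beta, rose while many genes that respond to interferon fell. Ifnb1 (chr4:88522025-88522774, minus strand) was at 3.13, 2.14, 0.558, 2.33 and 1.06 CPM with LPS and 53.2, 8.96, 14.1, 89.05 and 118 CPM with LPS and piericidin A. Each library with piericidin A lay above each without it, and the log2 change was 4.60 ± 0.37 (SE, adjusted p = 2.5e-08), with mice 520 and 496 highest and mouse 452 lowest. Of 29 tested members of the type I interferon list 12 were called lower and 3 higher, with a median of -0.31. Beside Ifnb1 the members that rose were Irf1, a transcription factor (0.68, adjusted p = 0.00736), and Oasl1 (0.72, adjusted p = 0.0181), which restrains the translation of Irf7. Stat2, a signal transducer of the interferon receptor, was at 823, 745, 591, 826 and 726 CPM with LPS and 610.3, 651, 445, 489.8 and 399 CPM with LPS and piericidin A and fell in each mouse, least in mouse 452, while the groups overlapped (-0.53, adjusted p = 0.00162). The regulators Irf7 and Irf3 fell by 0.53 and 0.38 on the log2 scale. Among effectors Ifi44 changed by -1.20 (adjusted p = 1.18e-06), Mx1, an antiviral GTPase, by -0.64 (adjusted p = 0.0136), Oas3, which starts RNA decay in infected cells, by -0.59 (adjusted p = 0.000376), Oas1a by -0.45 (adjusted p = 0.000974), and Herc6, a ligase for ISG15, by -0.50 (adjusted p = 0.000703). The RNA sensor Ddx58, known as RIG-I, changed by -0.37 (adjusted p = 0.0235). The early response genes Ifit1, Ifit2, Ifit3, Isg15, Rsad2 and Cmpk2 did not pass and lay between 0.05 and 0.19. The number of calls changed with the pairing and with single mice: with no mouse block 1 member was called lower and 1 higher, and without mouse 496, or without mouse 520, 6 were called lower. Genes named here that were lost with no block were Irf1, Oasl1, Stat2, Ifi44, Mx1, Oas3, Irf7, Irf3, Oas1a, Herc6 and Ddx58 (adjusted p = 0.0525 to 0.330). The call was lost for Oasl1 without mouse 453 or 520 (log2 change 0.63 and adjusted p = 0.0721 without 520), Mx1 without mouse 496 or 520 (log2 change -0.55 and adjusted p = 0.0718 without 520) and Irf7 without mouse 496 or 520 (log2 change -0.39 and adjusted p = 0.114 without 520). The call was likewise lost for Irf3 without mouse 449, 496 or 520 (log2 change -0.30 and adjusted p = 0.111 without 496) and Ddx58 without mouse 453, 496 or 520 (log2 change -0.33 and adjusted p = 0.0844 without 453). Other fits that kept the block lost Irf7 on the WT libraries alone (adjusted p = 0.0659) and Irf3 on the 10 compared libraries (adjusted p = 0.0969).

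GAAANNGAA, a core of the element read by IRF and STAT factors, was found in 13 of 24 interferon genes with a promoter (54.2%) and in 6 of the 12 that were called, beside 2638 of 27025 genes (9.76%). The windows of Ifi44 and Oas3, both called lower, are shown. Ifi44 holds its match on the opposite strand with the leftmost base at -3, and Oas3 holds 2 overlapping matches on its own strand from -75, all in capitals.
Ifi44 (chr3:151749861-151749960, minus strand): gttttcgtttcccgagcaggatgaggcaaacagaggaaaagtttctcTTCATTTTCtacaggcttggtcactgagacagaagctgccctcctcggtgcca
Oas3 (chr5:120777681-120777780, minus strand): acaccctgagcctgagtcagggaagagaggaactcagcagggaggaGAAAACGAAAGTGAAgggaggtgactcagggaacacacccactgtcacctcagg

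**Figure D3:**
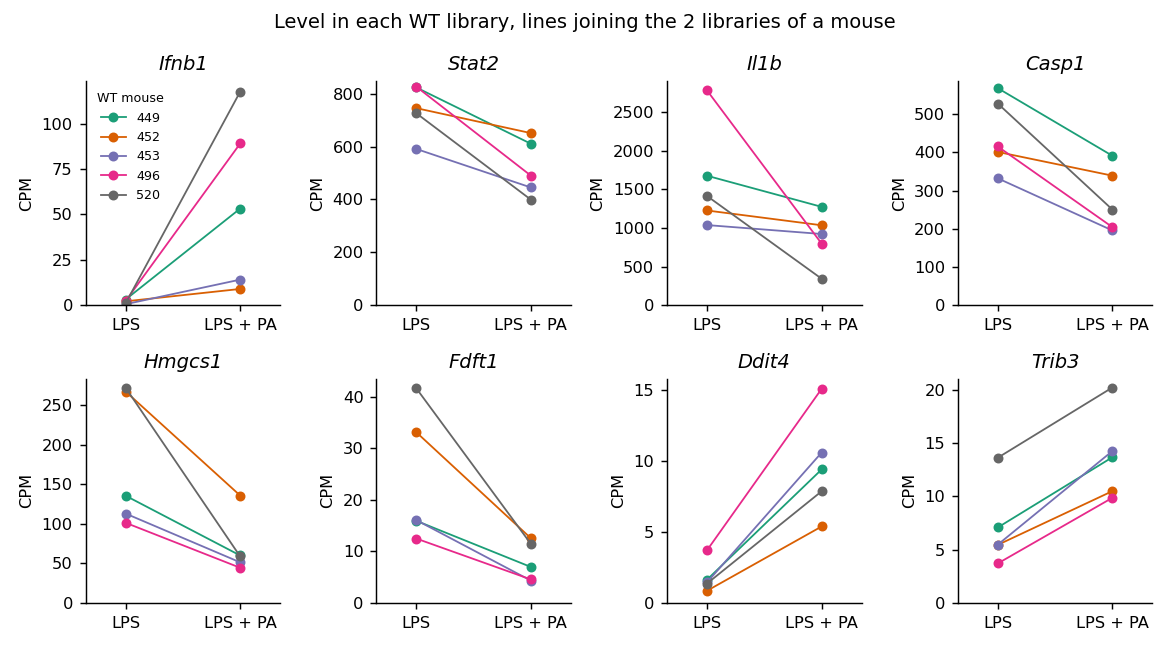
CPM of 8 genes in the 10 WT libraries, with LPS (left) and with LPS plus piericidin A (LPS + PA, right); each line joins the 2 libraries of a mouse, and each axis is linear and starts at 0. The lines of Ifnb1, Ddit4 and Trib3 rise in all 5 mice and those of Stat2, Il1b, Casp1, Hmgcs1 and Fdft1 fall in all 5, with the steepest fall of Il1b in mouse 496.

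Genes of the inflammasome, the complex that activates the protease Casp1, fell in part, and Nlrp3 did not pass the test. Of 16 tested members 7 were called lower and 2 higher, with a median of -0.36. Nlrp3, the sensor (chr11:59541568-59566956, plus strand), was at 1606, 1567, 1016, 1776 and 1152 CPM with LPS and 1385, 1377, 754, 986 and 855 CPM with LPS and piericidin A. It was lower in each of the 5 mice, the groups overlapped, and the log2 change of -0.40 ± 0.29 (SE, adjusted p = 0.293) did not pass. The fit on the 10 compared libraries with the block called it (-0.36, adjusted p = 0.0162), as did the fit with no filter on low counts (adjusted p = 0.00021). Casp1, the protease, was at 568, 401, 332, 415 and 527 CPM with LPS and 391, 339, 196, 204 and 250.2 CPM with LPS and piericidin A. Mice 496, 520 and 453 had the lowest levels with piericidin A, each mouse fell and the groups overlapped (log2 change -0.72 ± 0.13 SE, adjusted p = 9.38e-05). The adaptor Pycard, also called ASC, changed by -0.46 (adjusted p = 0.0129), and the pore-forming Gsdmd by -0.36 (adjusted p = 0.00451). The DNA sensor Aim2 changed by -0.69 (adjusted p = 7.1e-06), Mefv, which encodes pyrin, by -0.56 (adjusted p = 0.0180), Casp8 by -0.57 (adjusted p = 3.49e-05) and Txnip, which binds thioredoxin, by -1.35 (adjusted p = 1.7e-05). Nlrp1b, another sensor, was the largest rise at 1.01 (adjusted p = 0.0203), and Ninj1, which ruptures the membrane in pyroptosis, was at 0.38 (adjusted p = 0.0245). With no mouse block, and likewise without mouse 496, 4 members were called lower and none higher. The named calls lost with no block were Pycard, Gsdmd, Mefv, Nlrp1b and Ninj1 (adjusted p = 0.0533 to 0.375). With 1 mouse left out, the call was lost for Pycard without mouse 496 or 520 (log2 change -0.32 and adjusted p = 0.149 without 496), Gsdmd without mouse 496 (log2 change -0.26 and adjusted p = 0.0547) and Mefv without mouse 496 or 520 (log2 change -0.41 and adjusted p = 0.151 without 496). The call was likewise lost for Nlrp1b without mouse 496 or 520 (log2 change 0.70 and adjusted p = 0.161 without 496) and Ninj1 without mouse 453 or 496 (log2 change 0.31 and adjusted p = 0.108 without 453). Fits with the block under another setting lost Pycard and Gsdmd on the 10 compared libraries (adjusted p = 0.0502 to 0.111).

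Cytokine genes moved both ways, with 4 of 17 tested called higher, 4 lower and a median of -0.10. These were 23.5% each way, beside 15.6% higher and 18.9% lower of all genes. Il1b, the cytokine that Casp1 matures (chr2:129364570-129371139, minus strand), was at 1678, 1228, 1039, 2783 and 1415 CPM with LPS and 1275, 1036, 923, 798 and 343 CPM with LPS and piericidin A. Every mouse fell, from a small change in mouse 453 to the largest in mice 496 and 520, and the groups overlapped (log2 change -0.88 ± 0.25 SE, adjusted p = 0.00690). Il18, matured by the same protease, was at 32.8, 22.9, 21.8, 54.6 and 28.5 CPM with LPS and 17.4, 19.6, 12.5, 21.6 and 13.6 CPM with LPS and piericidin A, without overlap (-0.88, adjusted p = 9.1e-06). Tnf was at 1656, 1706, 1020, 2116 and 1281 CPM with LPS and 2006, 1693, 915, 2539 and 2446 CPM with LPS and piericidin A and Il10 at 89.9, 50.3, 52.5, 98.4 and 90.2 CPM with LPS and 77.6, 60.9, 54.3, 92.1 and 64.5 CPM with LPS and piericidin A. Tnf did not pass (log2 change 0.19 ± 0.33 SE, adjusted p = 0.697), nor did Il10 (log2 change -0.10 ± 0.14 SE, adjusted p = 0.614). Il6 was at 0.40 (adjusted p = 0.0578) and Il12a at -0.97 (adjusted p = 0.0821), also not past the threshold. Il6 passed in the fits on fewer libraries, with no filter or with thinned counts, and without mouse 496 (adjusted p = 0.0238), and Il12a passed without mouse 520 (log2 change -1.37, adjusted p = 0.0282). The largest rises in the list were those of Lif, with a log2 change of 2.32 ± 0.44 (SE, adjusted p = 0.000139), and Osm, with one of 1.56 ± 0.26 (SE, adjusted p = 2.83e-05). Lif was at 0.817, 0.214, 0.335, 5.90 and 0.151 CPM with LPS and 5.09, 0.512, 3.04, 25.04 and 2.00 CPM with LPS and piericidin A, and Osm, oncostatin M, was at 6.81, 5.13, 2.90, 8.92 and 6.66 CPM with LPS and 17.2, 8.57, 12.97, 34.9 and 19.02 CPM with LPS and piericidin A. Counts of Lif went down to 1 in the compared libraries, below the floor of 3, so the size of its rise is uncertain. Il12b changed by 0.70 (adjusted p = 0.00130), Il1rn, the receptor antagonist, by 0.45 (adjusted p = 0.0100), Il15 by -0.48 (adjusted p = 0.00455) and Ebi3 by -0.52 (adjusted p = 0.00791). Without mouse 496 there were 5 higher and 2 lower, and with no block 2 of each. With no block the calls of Il1b, Il12b, Il1rn and Ebi3 were lost (adjusted p = 0.0669 to 0.314). In the fits without 1 mouse, calls were lost for Il1b without mouse 496 or 520 (log2 change -0.61 and adjusted p = 0.0783 without 520) and Ebi3 without mouse 496 (log2 change -0.36 and adjusted p = 0.105). With the block kept, other settings lost Il12b with DESeq2 (adjusted p = 0.223).

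Of 17 chemokines tested 4 were called higher and 2 lower, with a median of 0.16 over the members tested. These were 23.5% higher and 11.8% lower, beside 15.6% and 18.9% of all genes. The count of higher chemokines moved with the fit, from 8 on the 10 compared libraries and 7 with no filter to 2 without mouse 520, 1 with DESeq2 and none with no block or with at least 10 counts required in every library. Ccl2, which draws monocytes, was at 544, 409.8, 409, 361 and 433 CPM with LPS and 823, 652, 649.6, 601 and 1186 CPM with LPS and piericidin A, without overlap of the groups (0.84, adjusted p = 0.00432). Its neighbour Ccl7 changed by 0.63 (adjusted p = 0.0139) and Ccl22 by 0.84 (adjusted p = 0.000641), and Ccl9 fell without overlap (-0.52, adjusted p = 0.00109). Ccl3, Ccl4, Cxcl1, Cxcl2 and Cxcl10 did not pass and lay between -0.12 and 0.50. Among 17 NF-kB subunits and feedback inhibitors 4 were called lower and none higher (median -0.14). All 5 subunits, Rela, Relb, Rel, Nfkb1 and Nfkb2, lay between -0.29 and 0.18 and did not pass, as did the inhibitors Nfkbia (-0.04, adjusted p = 0.889) and Tnfaip3 (0.02, adjusted p = 0.960). The list share called lower, 23.5%, stands beside 18.9% for all genes. The members that fell were Irak3, a brake on TLR signalling (-1.04, adjusted p = 2.44e-05), Tnip3 (-1.0, adjusted p = 6.92e-05), Tnip1 (-0.49, adjusted p = 0.0130) and the deubiquitinase Cyld (-0.38, adjusted p = 0.00331). Irak3 was at 181, 176, 116, 319 and 244 CPM with LPS and 89.01, 134, 60.4, 122 and 85.3 CPM with LPS and piericidin A. In the fit with no block Ccl2, Ccl7, Ccl22 and Tnip1 did not pass (adjusted p = 0.0626 to 0.256). Calls lost when 1 mouse was left out were those of Ccl7 without mouse 520 (log2 change 0.49 and adjusted p = 0.0921) and Tnip1 without mouse 496 (log2 change -0.41 and adjusted p = 0.0855). Other fits that kept the block lost Ccl7 and Ccl22 with DESeq2 (adjusted p = 0.0623 to 0.111).

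Of 23 immediate early genes and MAP kinase feedback genes tested, 8 were called higher and 4 lower (median 0.25). Fosb, a subunit of AP-1, was at 0.681, 0.748, 1.12, 1.37 and 1.51 CPM with LPS and 3.08, 2.94, 6.25, 3.54 and 3.72 CPM with LPS and piericidin A, with no overlap (log2 change 1.86 ± 0.39 SE, adjusted p = 0.000444). Dusp5, a phosphatase that turns off ERK, was at 35.7, 16.8, 19.5, 25.5 and 20.7 CPM with LPS and 85.1, 46.4, 71.8, 79.4 and 51.5 CPM with LPS and piericidin A, also with no overlap (log2 change 1.5 ± 0.18 SE, adjusted p = 2.07e-07). Egr1 (1.24, adjusted p = 0.000179), Maff (1.03, adjusted p = 0.000756) and Dusp4 (0.77, adjusted p = 0.00272) rose as well, and Fos itself was at 0.13 (adjusted p = 0.568). Trib1, given above, and Ier2 (-0.84, adjusted p = 0.000189) fell. Growth factors and vasoactive peptides had 6 of 12 called higher and 2 lower (median 0.54). Hbegf, an EGF receptor ligand, was at 4.49, 4.27, 1.67, 5.21 and 7.57 CPM with LPS and 13.00, 13.2, 12.2, 44.9 and 29.4 CPM with LPS and piericidin A. Vegfa, which drives vessel growth, was at 19.2, 21.7, 16.4, 38.7 and 24.1 CPM with LPS and 50.9, 55.7, 71.3, 71.97 and 47.1 CPM with LPS and piericidin A. Both lay apart from their LPS groups, with log2 changes of 2.19 ± 0.25 (SE, adjusted p = 1.09e-07) and 1.33 ± 0.15 (SE, adjusted p = 8.43e-08). Edn1 was at 122, 123, 67.2, 145 and 105 CPM with LPS and 45.98, 60.4, 18.9, 27.95 and 30.6 CPM with LPS and piericidin A, and like Pdgfb it fell with no overlap (log2 change -1.66 ± 0.15 SE, adjusted p = 1.64e-09). Inhba, an activin chain, changed by 0.67 (adjusted p = 0.00367) and Bmp2 by 0.82 (adjusted p = 0.0201). Prostaglandin synthesis had 4 of 11 higher and 2 lower, the latter being Pla2g4a, the phospholipase that frees arachidonic acid (-1.10, adjusted p = 2.19e-06), and Ptges, the terminal prostaglandin E synthase (-0.82, adjusted p = 0.0175). The shares of this list were 36.4% higher and 18.2% lower, beside 15.6% and 18.9% of all genes. Hpgds, the prostaglandin D synthase, rose (0.69, adjusted p = 3e-05) and Ptgs2, the inducible cyclooxygenase, was at -0.49 (adjusted p = 0.116). With no block 3 immediate early genes were called higher and 2 lower, and 3 growth factors higher and 2 lower. Without mouse 496 or 520 there were 2 immediate early genes lower and 2 prostaglandin genes higher, the latter also without mouse 452 or 453. Of the prostaglandin genes 1 was higher and 1 lower with no block, and 3 were higher and 4 lower with no filter. Among those named Maff, Dusp4, Inhba, Bmp2 and Ptges were lost (adjusted p = 0.0531 to 0.115). The call was lost for Bmp2 without mouse 496 or 520 (log2 change 0.73 and adjusted p = 0.0851 without 520) and Ptges without mouse 496 or 520 (log2 change -0.65 and adjusted p = 0.0776 without 520).

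Glycolysis had 9 of 20 tested members called higher and 1 lower, with a median of 0.32. The list median per mouse was 0.59, 0.42, 0.75, 0.02 and -0.05, and the fitted median without mouse 449 was 0.19 and without mouse 453 0.21. Gpi1 (0.65, adjusted p = 8.71e-07), Aldoa (0.43, adjusted p = 0.00068), Gapdh (0.45, adjusted p = 0.000534), Pgam1 (0.38, adjusted p = 0.000402), Eno1 (0.34, adjusted p = 0.0255) and Pkm (0.42, adjusted p = 0.000974), enzymes spread along the pathway, rose by modest amounts. Hk2, the inducible hexokinase, was at 214, 189, 153, 382 and 207 CPM with LPS and 352, 301, 252, 501 and 315 CPM with LPS and piericidin A (0.62, adjusted p = 0.00110). The lactate carrier Slc16a1 changed by 0.78 (adjusted p = 0.000105) and Pfkm, a muscle-type phosphofructokinase, by 0.90 (adjusted p = 0.00273). Pfkfb3, whose product activates phosphofructokinase, was at 878, 723, 591, 1339 and 1053 CPM with LPS and 471, 648, 331, 476 and 319 CPM with LPS and piericidin A, lower in each mouse with an overlap of the groups (log2 change -0.97 ± 0.18 SE, adjusted p = 0.000108). The glucose carrier Slc2a1 was at 0.04 (adjusted p = 0.894) and Ldha at 0.26 (adjusted p = 0.0625), which passed without mouse 496 (adjusted p = 0.0222) or 520 (adjusted p = 0.0144). With no block 2 members were called higher and 1 lower. HIF-1 targets outside glycolysis had 5 of 15 higher and 1 lower (median 0.27), with list medians per mouse of 0.52, 0.42, 0.38, 0.24 and -0.34 and fitted medians of 0.14 to 0.18 without mouse 449, 452 or 453, and with 1 member called with no block. They included Vegfa, P4ha2, a collagen hydroxylase (0.65, adjusted p = 0.00249), and Ndrg1 (0.61, adjusted p = 0.00895) among the rises, while Pdk1 was at 0.05 (adjusted p = 0.821) and Egln3 at 0.73 (adjusted p = 0.176). The mouse block was needed for Gpi1, Aldoa, Gapdh, Pgam1, Eno1, Pkm, Hk2, P4ha2 and Ndrg1 (adjusted p = 0.0840 to 0.408 without it). With 1 mouse left out, the call was lost for Eno1 without mouse 449, 452 or 453 (log2 change 0.22 and adjusted p = 0.196 without 449). Fits with the block under another setting lost Eno1 on the WT libraries alone and on the 10 compared libraries (adjusted p = 0.0672 to 0.0896).

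Few nuclear genes of complex I and the TCA cycle were called. Of 37 nuclear genes for complex I subunits 4 were called higher and none lower, with a median of 0.09 and a largest change of 0.58 (adjusted p = 3.59e-05) for Ndufa6. With no block, without mouse 449 or without mouse 453, 1 complex I gene was called higher, without mouse 452 there were 2 higher and 1 lower, and without mouse 520 or with no filter 2 higher. Of 23 genes of itaconate synthesis and the TCA cycle 2 were called higher, the isocitrate dehydrogenase subunits Idh3b (0.41, adjusted p = 0.000146) and Idh3g (0.40, adjusted p = 0.000119). Acod1, which makes itaconate, was at 11784, 12143, 8637, 11935 and 10112 CPM with LPS and 11108, 12539, 8378, 9305 and 8888 CPM with LPS and piericidin A, a log2 change of -0.12 (adjusted p = 0.867). Mitochondrially encoded mRNAs were called lower in 6 of 7 tested. The 6 were mt-Nd1, mt-Nd2, mt-Nd4, mt-Nd5, mt-Nd6 and mt-Cytb, which encode subunits of complexes I and III, with log2 changes between -0.45 and -0.31, and mt-Co1 was at 0.02 (adjusted p = 0.887). mt-Cytb was at 494, 405, 384, 839 and 598 CPM with LPS and 377, 315, 279, 642 and 449 CPM with LPS and piericidin A. The groups overlapped for each of the 6. With no block none of them was called and without mouse 453 there were 3. The other 6 mitochondrial mRNAs had at most 1 count in any compared library, and nuclear copies of mitochondrial DNA make the counts of such genes uncertain. The share of all counts from mitochondrial genes was 0.328 to 0.557% with LPS and 0.258 to 0.764% with LPS and piericidin A. It was higher with piericidin A in mice 449, 496 and 520 and lower in mice 452 and 453.

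Of 15 tested genes for creatine, adenylate and NADH shuttles 2 were called higher and 2 lower. Ckb, the brain-type creatine kinase that macrophages express, was at 127, 113, 139, 112 and 110.1 CPM with LPS and 148, 122, 221, 118 and 121 CPM with LPS and piericidin A. The groups overlapped, mouse 453 rose most, and the log2 change was 0.25 ± 0.11 (SE, adjusted p = 0.0798), past the threshold only in the fit on the 10 compared libraries with the block (0.30, adjusted p = 0.0457). Ckmt2, the mitochondrial creatine kinase of muscle, had no counts in the 10 compared libraries. The creatine carrier Slc6a8 was at 0.41 (adjusted p = 8.71e-05), the mitochondrial aspartate-glutamate carrier Slc25a13 at 0.87 (adjusted p = 6.39e-05), its paralogue Slc25a12 at -0.38 (adjusted p = 0.00315) and Gpd2, the mitochondrial enzyme of the glycerol phosphate shuttle, at -0.64 (adjusted p = 0.0103). Slc25a13 was at 12.8, 12.3, 11.7, 5.62 and 11.2 CPM with LPS and 17.02, 16.8, 21.5, 15.7 and 25.7 CPM with LPS and piericidin A, without overlap of the groups. NRF2 genes had 5 of 20 higher and 3 lower, with Hmox1, haem oxygenase, at 0.50 (adjusted p = 3e-05), Ftl1, a ferritin chain, at 0.48 (adjusted p = 8.55e-05) and Gsr, glutathione reductase, at -0.54 (adjusted p = 0.000184). Of 9 genes of arginine and nitric oxide metabolism 2 rose, led by Odc1, the entry enzyme of polyamine synthesis, at 145, 124, 168, 138 and 125 CPM with LPS and 291, 208, 421, 287 and 208 CPM with LPS and piericidin A. Odc1 did not overlap between groups (log2 change 0.97 ± 0.12 SE, adjusted p = 3.84e-07), and Nos2 was at -0.31 (adjusted p = 0.213). The unfolded protein response of the ER had 2 of 21 higher and 4 lower, and the cytosolic heat shock list 2 of 16 higher and 5 lower, with Hspa1a at 0.02 (adjusted p = 0.966). As shares these were 9.52% higher and 19.0% lower for the ER list and 12.5% and 31.2% for the heat shock list, beside 15.6% and 18.9% of all genes. Without mouse 453, 496 or 520 the ER and heat shock lists each had 2 called lower, while with no block each had 1, and on the 10 compared libraries they had 2 and 1. The NRF2 list had 3 called higher without mouse 496 or 520, 9 on the 10 compared libraries and 1 with no block. The calls of Slc6a8, Gpd2 and Hmox1 were lost with no block (adjusted p = 0.147 to 0.196). In the fits without 1 mouse, calls were lost for Gpd2 without mouse 496 (log2 change -0.57 and adjusted p = 0.0537).

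Cell cycle and replication genes had 10 of 26 called higher and 2 lower, with a median of 0.45. The list median per mouse was 0.23, 0.19, -0.15, 0.77 and 0.66, lower than 0 in mouse 453 and highest in mice 496 and 520, and the fitted median was 0.22 without mouse 496 and 0.68 without mouse 453. Those that rose were Cdc20 (0.96, adjusted p = 0.0292) and Cdk1 (0.61, adjusted p = 0.0461) of mitosis, Mcm2 (0.88, adjusted p = 0.000394), Mcm7 (0.78, adjusted p = 0.00228), Mcm4 (0.70, adjusted p = 0.00190) and Mcm3 (0.34, adjusted p = 0.0396) of the replicative helicase, Pcna, the sliding clamp (0.75, adjusted p = 1.04e-06), and the factor E2f1 (0.71, adjusted p = 0.00047), together with Mki67 (0.80, adjusted p = 0.00103) and Top2a (0.69, adjusted p = 0.0261). The other helicase subunits Mcm5 and Mcm6 were at 0.22 and -0.25 and were not called, nor were Rrm1, Rrm2 and Tyms, while Mcm6 passed in the DESeq2 fit (adjusted p = 0.0432). Pcna was at 211, 150.0, 135, 198 and 225 CPM with LPS and 310.2, 190.3, 214, 407 and 483 CPM with LPS and piericidin A. Mice 496 and 520 rose most and the groups overlapped. The cyclin-dependent kinase inhibitor Cdkn1a fell (-0.38, adjusted p = 0.0477), as did Ccnd3 (-0.34, adjusted p = 0.0454). The list had 6 higher and none lower with no block, and also without mouse 496 or without mouse 520. Of those named, Mcm3, Cdc20, Cdk1, Top2a, Cdkn1a and Ccnd3 did not pass with no block (adjusted p = 0.105 to 0.359). Calls lost when 1 mouse was left out were those of Mcm3 without mouse 496 or 520 (log2 change 0.25 and adjusted p = 0.234 without 496), Cdc20 without mouse 496 or 520 (log2 change 0.72 and adjusted p = 0.170 without 520) and Cdk1 without mouse 449, 496 or 520 (log2 change 0.42 and adjusted p = 0.248 without 496). The call was likewise lost for Top2a without mouse 496 or 520 (log2 change 0.53 and adjusted p = 0.133 without 496), Cdkn1a without mouse 449, 496 or 520 (log2 change -0.22 and adjusted p = 0.302 without 496) and Ccnd3 without mouse 449, 496 or 520 (log2 change -0.23 and adjusted p = 0.236 without 520). With the block kept, other settings lost Mcm3, Cdc20, Cdk1, Cdkn1a and Ccnd3 on the WT libraries alone (adjusted p = 0.0669 to 0.0879), Mcm3, Cdc20, Cdkn1a and Ccnd3 on the 10 compared libraries (adjusted p = 0.0651 to 0.163), Mcm3 with no filter (adjusted p = 0.139), Cdkn1a and Ccnd3 with the stricter filter (adjusted p = 0.0553 to 0.0560), and Cdk1, Top2a, Cdkn1a and Ccnd3 with thinned counts (adjusted p = 0.0507 to 0.126).

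In NDI1 BMDMs, where NADH oxidation by the yeast enzyme goes on in the presence of piericidin A, no gene of 11853 was called for piericidin A under LPS (0%), with 334 at an unadjusted p under 0.05 by edgeR and none at an adjusted p under 0.05 by DESeq2. The test of the difference in effect, NDI1 minus WT, called 1127 genes (9.51%), and 1115 of them were among the 4090 called in WT, 1114 with a smaller change in NDI1. The difference uses the same WT libraries as the WT effect. Arl4c was at 12.5 ± 4.09 CPM (SD, n = 5) with LPS and 15.4 ± 3.82 CPM with LPS and piericidin A in NDI1, and the log2 effect differed from WT by -3.41, adjusted p = 1.58e-08. For Cxcr4 the NDI1 levels were 6.34 ± 2.52 and 6.16 ± 2.35 CPM, a difference in effect of -2.85, adjusted p = 1.7e-05. Ifnb1 was at 1.53 ± 0.916 and 1.58 ± 0.922 CPM in NDI1 (-4.53, adjusted p = 0.000464). In the sterol list 13 of 24 members differed between genotypes, with Fdft1 at 22.8 ± 7.33 and 20.2 ± 5.97 CPM in NDI1 (1.36, adjusted p = 4.29e-05) and Hmgcs1 at a difference of 1.08, adjusted p = 0.0005. The interferon list had 3 of 29 that differed, beside 9.51% of all genes tested, among them Ifnb1 and Ifi44 (1.03, adjusted p = 0.00378). Stress response genes that differed were Gdf15 (-2.35, adjusted p = 0.000426), Ddit4 (-2.88, adjusted p = 0.000426), Trib3 (-0.89, adjusted p = 0.0121) and Sesn2 (-0.88, adjusted p = 0.0265). The inflammasome list had 4, with Casp1 at 0.71, adjusted p = 0.0137 and Txnip at 1.19, adjusted p = 0.0111. Il1b was at 1724 ± 630.2 and 1421 ± 506 CPM in NDI1, and the difference in its effect did not pass (0.60, adjusted p = 0.285), nor did that of Pycard (0.47, adjusted p = 0.134) or Gsdmd (0.29, adjusted p = 0.175). Without mouse 496 the test called 457 genes and without mouse 520 it called 481, against 1628 without mouse 452 and 682 to 733 without NDI1 mouse 461, 503 or 521, and with no block it called 116. Casp1 missed the threshold without mouse 496 (adjusted p = 0.0638) or 520 (adjusted p = 0.0636), Trib3 without 496 (adjusted p = 0.0529), and Sesn2 without mouse 453, 496, 520, 503 or 521 (highest adjusted p = 0.0902, without 520). With no block Arl4c, Cxcr4, Ifnb1, Gdf15 and Ddit4 still differed at the threshold, and Fdft1, Hmgcs1, Ifi44, Trib3, Sesn2, Casp1 and Txnip did not (adjusted p = 0.128 to 0.625).

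The effect of piericidin A under LPS was also set against its effect in the same WT mice without LPS, where 2041 genes were higher (17.2% of those tested) and 2008 lower (16.9%). The pairs of groups share mice but no library. The effect differed for 2066 genes (17.4%), higher with LPS for 942 (7.95%) and lower for 1124 (9.48%). Among the 4090 genes called under LPS 1236 differed, of which 1079 had the larger change with LPS. Choosing genes by their call under LPS favours a larger change there, so this count does not compare the conditions. In the sterol list the effect was lower with LPS for 11 of 24 members and higher for 1, and without LPS 10 members were called lower and 3 higher. Fdft1 was at 11.96 ± 4.71 CPM untreated and 9.63 ± 2.30 CPM with piericidin A alone (SD, n = 5), a log2 change of -0.27, and the effect with LPS differed by -1.27, adjusted p = 1.82e-05. Arl4c was at 159.5 ± 48.2 CPM untreated and 238 ± 89.03 CPM with piericidin A alone, a log2 change of 0.51, against 3.73 with LPS (difference 3.22, adjusted p = 1.9e-09). Pdxk was at 250.4 ± 59.7 and 400.0 ± 83.95 CPM without LPS (difference 2.87, adjusted p = 7.75e-06).

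Without LPS 7 of 17 cytokines, 12 of 17 chemokines, 8 of 17 NF-kB genes and 15 of 23 immediate early genes were called higher with piericidin A and none lower, and 8, 9, 9 and 13 of these lists had a lower effect with LPS. Tnf was at 19.2 ± 12.04 CPM untreated and 95.3 ± 88.00 CPM with piericidin A alone, a log2 change of 2.06, and the effect with LPS differed by -1.87, adjusted p = 0.00708. Il1b was at 3.55 ± 0.431 and 9.62 ± 4.87 CPM without LPS, where its log2 change of 1.34 was opposite in sign to that with LPS (difference -2.22, adjusted p = 0.000281). Nlrp3 was at 81.3 ± 41.2 and 149 ± 73.9 CPM without LPS, a log2 change of 0.87, and also differed (-1.27, adjusted p = 0.0297). Gsdmd differed too, with 0.26 without LPS (-0.63, adjusted p = 0.00199). Ccl3 and Ccl4 changed by 4.10 and 4.76 without LPS, and by -0.12 and 0.43 with it. The stress response had 13 of 15 called higher without LPS, against 7 with it, and 8 members had a lower effect with LPS and 1, Ddit4, a higher one (1.18, adjusted p = 0.0418). Heat shock genes numbered 7 of 16 higher without LPS, and Hspa1a changed by 5.18 there (-5.16, adjusted p = 1.9e-09). No interferon gene of 29 differed between the conditions. Mitochondrially encoded mRNAs were called lower in 6 of 7 in both conditions and none differed, and of 37 complex I genes 12 were called higher without LPS and none differed. Without mouse 496 the test of the difference called 1061 genes and without mouse 520 1127, and with no block 563. Tnf missed the threshold without mouse 496 (adjusted p = 0.0642), and Nlrp3 without mouse 452, 453 or 496 (highest adjusted p = 0.137, without 496). Ddit4 did so without mouse 449, 452, 453 or 496 (highest adjusted p = 0.145, without 453). With no block Arl4c, Pdxk, Il1b, Gsdmd and Hspa1a still differed at the threshold, and Fdft1, Tnf, Nlrp3 and Ddit4 did not (adjusted p = 0.0907 to 0.349).

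**Figure D4:**
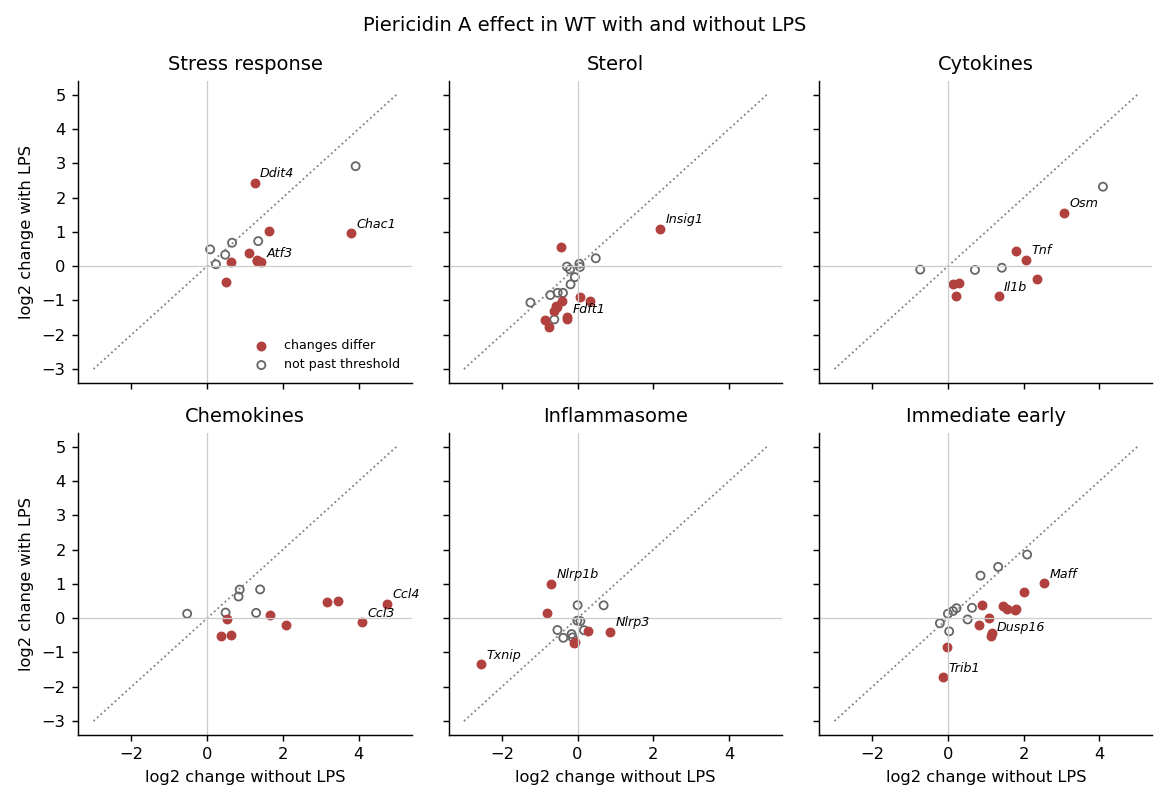
Log2 change with piericidin A in WT BMDMs with LPS (vertical axis) against that without LPS (horizontal axis), for tested members of 6 lists that were above the floor of 3 counts without LPS; filled points differ between the conditions at an adjusted p under 0.05 and the dotted line marks equal changes. Below the line lie 14 of 15 chemokine points and 11 of 12 cytokine points, with Ccl4 at 4.76 without and 0.43 with LPS, and 19 of 24 sterol points lie below it.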

How the data were processed

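RNA was sequenced from 40 BMDM libraries, 5 for each of 8 groups of genotype and treatment. The authors deposited raw counts per gene. Per the labels and methods, polyA libraries (a kit that does not mark strand) were demultiplexed with bcl2fastq, trimmed with Trimmomatic, aligned to mm10 with STAR and counted over exons with HTSeq. Neither the release of the annotation nor the strand setting of the counting is given in the sources used here. The table held 43430 genes, of which 968 carried no symbol, and 1 further value column was not used. Library totals ran from 6950748 to 13552070 counts. A depth of 6950748 counts puts 3 counts at 0.432 CPM of the plain total, which covers counting error only. In the 2 groups compared no 2 libraries of a group agreed within sampling noise.

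From the counts, edgeR 4.0.16 (R 4.3.3) was run with filterByExpr, TMM factors and its quasi-likelihood test, with a term for each mouse (a replicate block) and for each genotype and treatment. The fit used all 40 libraries and 11853 genes, and a gene was called at a Benjamini-Hochberg adjusted p under 0.05. Log2 differences of single mice and mean log2 CPM use a prior count of 2, which the fitted log2 changes do not use. CPM of single genes is taken on totals over the tested genes times their TMM factors. CPM of list sums and of the floor uses plain library totals. The methods name DESeq2 and edgeR and no block. The block was used because library numbers, taken as mice, recur in all 4 treatments. Within genotypes, libraries of the same mouse deviated together (mean correlation across genes of 0.453 over 60 pairs, lowest 0.0995). The mean of -0.107 for different mice adds no separate evidence, since deviations from a group mean sum to 0. Alternatives were no block, fewer libraries, DESeq2 1.42.0, RLE factors, other filters, thinned counts and leaving out each mouse.

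Named genes were the 12 largest rises and falls shared by all 5 WT mice, from called genes whose log2 CPM averaged 1 or more (predicted genes left out), at most 6 called members of each list by size, and 9 genes that the study names. Further list members were chosen after their values were seen. The results of some list members are not reported here. The members and the 36 lists were chosen with earlier results of these data known. Promoter sequences are from RefSeq on GRCm38.p6 and were matched by symbol (27025 genes). Statistics were tested on simulated data. Tables and plots were made in Python 3.11.15 with pandas 2.3.3, numpy 2.4.6 and matplotlib 3.10.9.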

Additional observations from a re-analysis of the deposited data

Results flagged for a closer look

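In 134 checks of groups of 5 values for a single far value, 3 were found, while chance gives about 1 in 20. Cyp51 with LPS and piericidin A stood at 44.1 CPM in mouse 452, far above the other 4 mice. The log2 difference of Ckb with piericidin A was 0.67 in mouse 453, the highest of the 5. The median log2 difference of the sterol list was -1.51 in mouse 520, the lowest of the 5.

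In LPS-treated cells 1127 genes had another response to piericidin A in NDI1 than in WT by edgeR's interaction test. Of genes that rose in WT, the difference (NDI1 minus WT, log2) was -3.59 for Htr2a, -3.41 for Arl4c, -3.11 for Pdxk, -3.09 for Amz1, -2.98 for Arhgap28, -2.85 for Cxcr4, -2.62 for Rgcc, -2.35 for Gdf15, -2.33 for Tmem37, -2.21 for Tm4sf19, and -2.05 for both Plagl1 and Tent5c. Of genes that fell in WT it was 1.74 for Pou2f2, 1.63 for Edn1, 1.60 for Pdgfb, 1.57 for Hdac9, 1.5 for Cp, 1.46 for Saa3, 1.38 for Cyp51 and Trib1, 1.36 for Fdft1, 1.03 for Idi1 and 0.71 for Casp1. With no block Cp, Cyp51, Fdft1, Hdac9, Idi1, Pdgfb, Pou2f2, Saa3, Trib1 and Casp1 no longer passed (adjusted p = 0.0746 to 0.552), and the other genes of this paragraph did. Calls were lost for Saa3 and Casp1 without mouse 496 or 520 and for Idi1 when any mouse other than 452 was left out (adjusted p = 0.0552 to 0.210).

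The effect in WT differed between cells with and without LPS for 2066 genes by the same kind of test. The difference (with minus without LPS, log2) was 3.22 for Arl4c, 3.19 for Plagl1, 2.87 for Pdxk, 2.22 for Tmem37, 2.20 for Arhgap28, 1.78 for Cxcr4, 1.5 for Amz1 and 1.13 for Tm4sf19. It was -2.22 for Il1b, -1.90 for Saa3, -1.87 for Tnf, -1.57 for Pdgfb and Trib1, -1.27 for Fdft1 and Nlrp3, -0.72 for Cyp51, -0.63 for Gsdmd and -0.62 for Casp1. With no block Cyp51, Fdft1, Pdgfb, Tm4sf19, Tnf, Nlrp3 and Casp1 no longer passed (adjusted p = 0.0704 to 0.403), and the other genes of this paragraph did. Calls were lost for Cyp51 without mouse 449 or 520, Tm4sf19 without 449, 496 or 520, Tnf without 496, Nlrp3 without 452, 453 or 496 and Casp1 without 496 or 520 (adjusted p = 0.0609 to 0.153).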

How the results depend on the processing

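The library numbers pair the samples by mouse, and the calls depended most on this block. With no block piericidin A changed 1983 genes in LPS-treated WT (926 higher, 1057 lower), 1759 in WT without LPS, and the effect differed for 116 genes between genotypes and for 563 between conditions. With no block on the 10 compared libraries alone, 891 genes were called (605 higher, 286 lower), and with the block on them 1405 were lower. Leaving out 1 mouse gave 2781 to 4090 calls in LPS-treated WT (1269 to 1876 higher, 1512 to 2214 lower), 457 to 1628 for the genotype difference, 1061 to 2000 for the condition difference, 2822 to 3889 without LPS, and 0 in each fit in NDI1. Other settings gave 3126 to 4165 calls in LPS-treated WT, and no gene called both there and in the report had the opposite direction. For these fits the cause of the difference was not tested. In NDI1 the fit on the compared libraries called 3 genes and that with no filter 5. Of the values of single genes chosen for naming under all alternatives, 4968 stayed on their side of the threshold, 934 fell short of it, 25 passed newly and 19 turned in sign. All 19 belong to genes not called. With no block Slc2a1 was at -0.182 and, on the compared libraries, at -0.12, where Ccl3 stood at 0.022 and Nfkbia at 0.003 (0.016 with the block). Without single mice Slc2a1 ran from -0.101 to 0.251, Pdk1 from -0.069 to 0.198, Hspa1a from -0.127 to 0.163, mt-Co1 from -0.023 to 0.07, Psat1 from -0.171 to 0.039 and Tnfaip3 from 0 to 0.053. Ckmt2 had 0 counts in all 10 compared libraries, so no change could be measured at this depth.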

Other observations

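The response to LPS was compared, after the data were seen, for the genes that piericidin A changed in LPS-treated WT cells. It was taken from NDI1 BMDMs, LPS against untreated, which share no library and no mouse with that comparison. A change of at least 2-fold in mean CPM (with 1 CPM added to each) was counted, with no test. Of all 11853 genes tested 1820 (15.4%) were higher with LPS in NDI1 and 1232 (10.4%) lower. Of the 2236 genes that were lower with piericidin A in WT, 791 (35.4%) were higher with LPS in NDI1 and 64 (2.86%) lower. Of the 1854 genes that were higher with piericidin A, 137 (7.39%) were higher with LPS and 511 (27.6%) lower. Among the 461 genes that rose by at least 2-fold, 186 (40.3%) were lower with LPS, and among the 141 that fell by as much, 66 (46.8%) were higher with LPS. With LPS plus piericidin A against piericidin A alone in NDI1, the share of the 2236 that were higher was 34% and the share of the 1854 that were lower was 25.2%.

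Levels of single genes in WT are given as means of 5 libraries. The LPS group here is the one from which the change with piericidin A was taken. Arl4c was at 160 CPM untreated, 13.4 CPM with LPS and 191 CPM with LPS and piericidin A. Pdxk was at 250.4, 24.6 and 306 CPM in the same order, and Cxcr4 at 268, 6.11 and 46.4 CPM. In these 3 genes the level with piericidin A lay between or above the levels of the other groups. Saa3 was at 69.3 CPM untreated, 2168 CPM with LPS and 787 CPM with LPS and piericidin A, and Cp at 11.5, 275 and 82.9 CPM. Of the 24 genes with the largest rises and falls, 18 had WT means that changed with piericidin A in the direction opposite to the change with LPS, and 6 in the same direction. The shared LPS group favours opposite directions in this count. Of the 6 in the same direction, Htr2a was at 0.67 CPM untreated, 3.44 CPM with LPS and 50.6 CPM with LPS and piericidin A, and Pdgfb at 58.1, 41.0 and 11.4 CPM.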
